A study of Rattus norvegicus with 6 samples.

Results

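The genes described here are the sensors of double-stranded RNA and the proteins that pass their signal on, taken by gene symbol from a matrix of 17648 genes. All 9 genes were found, namely TLR3, DDX58 (also named RIGI), IFIH1, DHX58, MAVS, EIF2AK2, IRF3, IRF7 and TBK1. Their RNA was measured by sequencing in 6 libraries of cultured spinal cord neurons from neonatal Sprague-Dawley rats. The 3 Glu + siR-Con libraries (siR-Con) came from cells that received a non-targeting control small interfering RNA (siRNA) by transfection, and the 3 Glu + siR-GAL3 libraries (siR-GAL3) from cells that received an siRNA against GAL3, the galectin-3 gene Lgals3. The question was whether RNA sensing is in place in cultures that all received an siRNA, which is itself a short double-stranded RNA. The cells had been cultured for 3 days, with cytarabine used against dividing cells. The design text and methods then have 10 μM glutamate in each group for 1 h, followed by 16 h in medium without glutamate. The sample labels instead give saline, 0 μM glutamate, for siR-Con and call the GAL3 samples a knockout, so that if the labels are right, glutamate and the siRNA cannot be told apart. No library of untransfected cells was among the 6, so a response to siRNA as such was not measured. The methods speak of independent repeats for the data of the study in general, but the labels do not tie the 3 libraries of a group to separate cultures. If they share a culture, the p-values measure only the spread between these libraries, which may be technical.

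Double-stranded RNA forms during the replication of many viruses and is detected in more than one compartment of the cell. TLR3 detects it in endosomes, the RIG-I-like receptors RIG-I, MDA5 and LGP2 detect it in the cytosol, and the kinase PKR responds to it by phosphorylating the translation factor eIF2α. RIG-I and MDA5 signal through MAVS on mitochondria to the kinase TBK1, which phosphorylates IRF3 and IRF7, and these switch on type I interferon genes. Interferon then raises the RNA of several of the sensors themselves, while MAVS, TBK1 and IRF3 are broadly expressed without it.

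The RNA of 6 of the 9 genes was higher in every siR-GAL3 library than in any siR-Con library, beside 9.01% of all genes. These were the cytosolic sensors DDX58, IFIH1 and DHX58, the sensor kinase EIF2AK2, the transcription factor IRF7 and the kinase TBK1. The siR-GAL3 mean was 1.65 times the siR-Con mean for DDX58, 1.50 times for EIF2AK2 and 2.30 times for IFIH1. The adaptor MAVS, the factor IRF3 and the endosomal sensor TLR3 overlapped between the groups, and TBK1 was separated by a gap smaller than its spread. The test chosen as the main one covered 5 of the 9 genes, as the other 4 had a mean too low for it. No gene had an adjusted p under 0.05 in it, neither among these 5 nor among all genes tested. With sets of libraries, found from their equal values, as a block in the same test, 106 genes did, and EIF2AK2 was the only one of the 5 genes tested there (adjusted p = 0.0446, limma). In that fit siR-GAL3 2, which is alone in its set, adds nothing to the group difference.

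The values are on a linear scale that the authors derived from FPKM, a read density that is scaled by transcript length and library size. They were changed after that scaling, so levels of different genes can be set beside each other only roughly. The authors removed batch effects and corrected differences within groups before deposit, so each SD is a spread that remained after correction. Of all values, 3.86% were below 0, and column totals lay between 64313 and 64714, and the depth of sequencing is unknown. Exactly equal values divided the libraries into 3 sets. Set 1 held siR-Con 1 and siR-GAL3 1, set 2 held siR-Con 2, siR-Con 3 and siR-GAL3 3, and set 3 held siR-GAL3 2 alone. Along the first principal component, with 65.2% of the variance, siR-GAL3 2 stood apart. The targeted gene, LGALS3, measured 77.4, 54.4 and 62.4 in siR-Con 1 to 3 and -1.64, 32.3 and 18.5 in siR-GAL3 1 to 3, so all 3 siR-GAL3 libraries were lower. Among the markers of neurons, the label of these cells, MAP2 lay between 13.1 and 19.0 and RBFOX3, which encodes NeuN, between 0.300 and 0.429. GFAP of astrocytes lay between 515 and 758 and MBP of oligodendrocytes between 629 and 919, so RNA of glia was abundant in all 6 libraries. In such bulk RNA, fewer cells of a type and less RNA per cell cannot be told apart.

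In the siR-Con cultures, the sensors and adaptors covered a range of levels. IRF3 had the highest mean of the 9, 4.98 ± 0.113 (SD, n = 3), which placed it at percentile 85.3 of all genes in the matrix. EIF2AK2 followed with 2.92 ± 0.405 at percentile 75.1. MAVS and TBK1 had means of 2.12 ± 0.122 and 2.09 ± 0.154, at percentiles 68.0 and 67.8, and their ranges overlapped. The RIG-I-like receptors were lower, with DDX58 at 1.18 ± 0.140 and percentile 55.4, IFIH1 at 0.411 ± 0.180 and percentile 39.2, and DHX58 at 0.143 ± 0.212 and percentile 29.5. TLR3 lay between DDX58 and IFIH1 with 0.766 ± 0.0879 at percentile 47.6. IRF7 had a mean below 0, -0.745 ± 1.67, at percentile 0.0113, a rank that rests on values below 0. Of neighbours in this order, MAVS and TBK1, IFIH1 and DHX58, and DHX58 and IRF7 overlapped in their siR-Con values, and the other neighbours did not. The downstream adaptor, kinase and IRF3 were thus measured well above 0 in every siR-Con library, whereas DHX58 and IRF7 were at or below 0 in some of them.

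**Figure D1:**
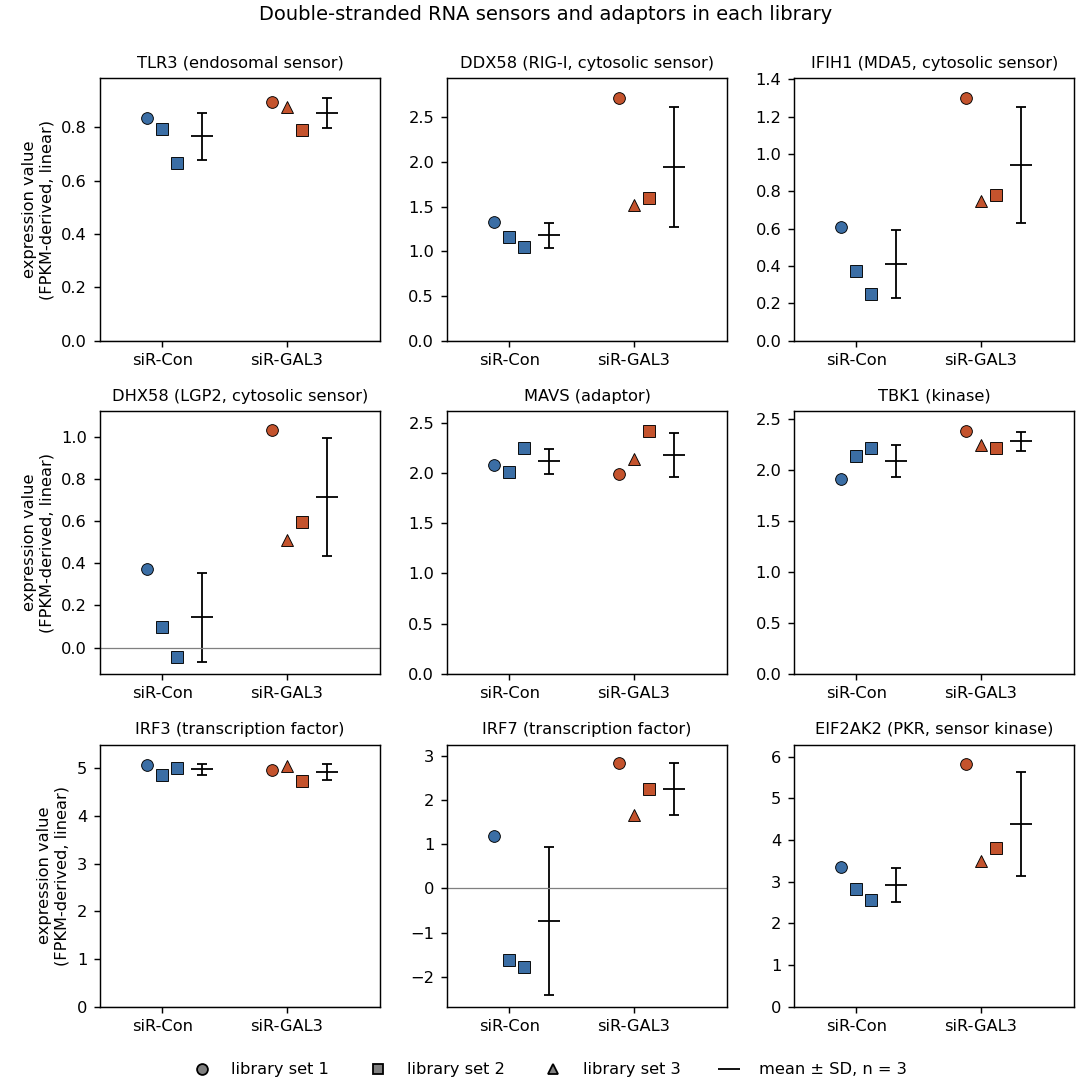
Each panel plots one gene, with the expression value (linear, FPKM-derived) of each of the 3 siR-Con and 3 siR-GAL3 libraries; symbols mark the 3 library sets and bars give the mean ± SD (n = 3). DDX58, IFIH1, DHX58, IRF7 and EIF2AK2 are highest in siR-GAL3 1 and do not overlap between groups, while MAVS, IRF3 and TLR3 overlap.

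The promoters are shown for the genes that were higher together, since several genes of antiviral defence carry an interferon-stimulated response element, a site bound by IRF factors. The core searched was GAAANNGAAA, and TTTCNNTTTC on the other strand, in RefSeq windows of assembly GRCr8 that run from 250 bases before to 50 bases after each gene's start. The table held windows for 7 of the 9 genes and none for DDX58 and DHX58. IRF7, IFIH1 and EIF2AK2 held the core, and IRF3, MAVS, TBK1 and TLR3 did not. Of all 33469 windows, 3.92% held it. The 110 bases before the start are printed 5′ to 3′ on the strand of the gene for the 3 windows with the core and, as a contrast, for IRF3, with the core in capitals.
IRF7: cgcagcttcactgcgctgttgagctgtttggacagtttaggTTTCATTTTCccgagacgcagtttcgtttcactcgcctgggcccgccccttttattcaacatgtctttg
IFIH1: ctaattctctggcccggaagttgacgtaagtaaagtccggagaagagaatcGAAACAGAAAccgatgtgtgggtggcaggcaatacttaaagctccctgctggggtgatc
EIF2AK2: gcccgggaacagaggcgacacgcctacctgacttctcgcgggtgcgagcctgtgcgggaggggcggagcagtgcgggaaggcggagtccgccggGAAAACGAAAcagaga
IRF3: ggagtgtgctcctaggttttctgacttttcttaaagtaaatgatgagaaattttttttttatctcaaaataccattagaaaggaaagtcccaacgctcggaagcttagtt
These stretches lie at chr1:205800024-205800133 on the minus strand for IRF7, chr3:67683969-67684078 on the minus strand for IFIH1, chr6:21941044-21941153 on the plus strand for EIF2AK2 and chr1:104616498-104616607 on the plus strand for IRF3. In IRF7 the core was read on the opposite strand, from 69 to 60 bases before the start, in IFIH1 on the strand of the gene from 59 to 50 bases before it, and in EIF2AK2 on the strand of the gene from 16 to 7 bases before it. A core within the 110 bases shown was found in 1.44% of all windows. These matches describe the letters of the windows, and binding was not measured here.

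The groups were compared with limma on log2(value + 1), after replacing values below 0 by 0, across 8495 genes whose mean reached 1, and 5 of these were DDX58, MAVS, TBK1, IRF3 and EIF2AK2. TLR3, IFIH1, DHX58 and IRF7 had a mean under 1 and are given from the same fit across all 17648 genes. Every fold change is on the scale of log2(value + 1), which understates the change of low genes. Of the 5 genes past the filter, 2 were higher in siR-GAL3 with an unadjusted p under 0.05, beside 4.41% of all genes tested in that direction. In the fit with no filter, this held for 3 of the 9, IFIH1, DHX58 and IRF7, beside 5.03% of all genes. DDX58 and EIF2AK2 had p-values of 0.0509 and 0.0511 in that fit. None was lower. The smallest adjusted p over all genes past the filter was 0.0695, and 736 of them had an unadjusted p under 0.05. With 3 libraries against 3, an exact permutation test cannot go below a two-sided p of 0.1.

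The RIG-I-like receptors were the first arm of the pathway. DDX58 encodes RIG-I, which binds short double-stranded RNA with a triphosphate at its 5′ end. Its values were 1.33, 1.16 and 1.05 in siR-Con 1 to 3 and 2.72, 1.51 and 1.60 in siR-GAL3 1 to 3. All 3 siR-GAL3 libraries lay above all siR-Con libraries, and siR-GAL3 1 lay far above the other two. The means were 1.18 ± 0.140 and 1.94 ± 0.672 (SD, n = 3), and the log2 fold change was 0.41 ± 0.15 (SE; 95% interval 0.05 to 0.77) with an unadjusted p of 0.0309 and an adjusted p of 0.535 by limma. Without siR-GAL3 1 the log2 fold change was 0.23, with p still under 0.05, and without siR-Con 2 or siR-Con 3 the unadjusted p was 0.0745 or 0.0932.

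IFIH1 encodes MDA5, which binds long double-stranded RNA. Its values were 0.606, 0.375 and 0.251 in siR-Con 1 to 3 and 1.30, 0.748 and 0.778 in siR-GAL3 1 to 3. The groups did not overlap, and both the highest siR-Con and the highest siR-GAL3 value came from library set 1. The log2 fold change was 0.46 ± 0.14 (SE), with an unadjusted p of 0.0214 and an adjusted p of 0.453 by limma over all 17648 genes. Without siR-Con 2 or siR-Con 3 the unadjusted p was 0.0613 or 0.0693.

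DHX58 encodes LGP2, a receptor that lacks the signalling domain of the other RIG-I-like receptors and modulates them. Its values were 0.373, 0.0980 and -0.0429 in siR-Con 1 to 3 and 1.03, 0.510 and 0.594 in siR-GAL3 1 to 3. The lowest siR-GAL3 value exceeded the highest siR-Con value, and 1 siR-Con value was below 0. The log2 fold change was 0.57 ± 0.16 (SE), with an unadjusted p of 0.0144 and an adjusted p of 0.415 by limma.

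The endosomal sensor TLR3 is known as inducible by interferon, as are the 5 genes with separate groups and p under 0.05, but showed no such separation. Its values were 0.835, 0.794 and 0.667 in siR-Con 1 to 3 and 0.895, 0.877 and 0.791 in siR-GAL3 1 to 3. The lowest siR-GAL3 library lay below siR-Con 1 and siR-Con 2. The log2 fold change was 0.07 (95% interval -0.07 to 0.21, p = 0.260, adjusted p = 0.693, limma), and an exact permutation test of the values gave a two-sided p of 0.3.

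EIF2AK2 encodes PKR, the kinase that halts translation when it binds double-stranded RNA. Its values were 3.36, 2.83 and 2.57 in siR-Con 1 to 3 and 5.83, 3.51 and 3.82 in siR-GAL3 1 to 3. The siR-GAL3 libraries lay above the siR-Con libraries, siR-GAL3 2 by a small margin and siR-GAL3 1 by a large one. The means were 2.92 ± 0.405 and 4.39 ± 1.26 (SD, n = 3), and the log2 fold change was 0.44 ± 0.17 (SE; 95% interval 0.05 to 0.83) with an unadjusted p of 0.0332 and an adjusted p of 0.535 by limma. Without siR-GAL3 1 it was 0.25 with an unadjusted p of 0.0540, and without siR-Con 2 or siR-Con 3 the unadjusted p was 0.0831 or 0.105. With the library set as a block, EIF2AK2 was the 1 gene of the 5 past the filter with an adjusted p under 0.05 (log2 fold change 0.50, adjusted p = 0.0446, limma), beside 0.895% of all genes higher in siR-GAL3 at that level. That fit takes no part of the difference from siR-GAL3 2, the only library of its set, which had the lowest siR-GAL3 value of EIF2AK2.

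The shared adaptor and kinase differed little. MAVS, the mitochondrial adaptor of RIG-I and MDA5, had values of 2.08, 2.02 and 2.25 in siR-Con 1 to 3 and of 1.99, 2.14 and 2.42 in siR-GAL3 1 to 3. The lowest of its 6 values was a siR-GAL3 value, and so was the highest. Its log2 fold change was 0.03 (95% interval -0.15 to 0.21) with an unadjusted p of 0.716 and an adjusted p of 0.863 by limma. TBK1, the kinase downstream of MAVS and TLR3, had values of 1.92, 2.14 and 2.21 in siR-Con 1 to 3 and of 2.39, 2.24 and 2.22 in siR-GAL3 1 to 3. The groups did not overlap, but the lowest siR-GAL3 value exceeded the highest siR-Con value by only 0.00282. The log2 fold change of TBK1 was 0.09 (95% interval -0.07 to 0.25) with an unadjusted p of 0.232 and an adjusted p of 0.626 by limma, and it was 0.05 without siR-Con 1. For both genes the interval excludes a log2 fold change of 1.

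The transcription factors at the end of the pathway differed from each other. IRF3, which is present before any stimulus, had values of 5.08, 4.86 and 5.01 in siR-Con 1 to 3 and of 4.98, 5.06 and 4.73 in siR-GAL3 1 to 3. The groups overlapped across nearly their whole range, and the log2 fold change was -0.01 (95% interval -0.16 to 0.13) with an unadjusted p of 0.818 and an adjusted p of 0.919 by limma. IRF7, which interferon induces and which amplifies the response, had values of 1.18, -1.63 and -1.79 in siR-Con 1 to 3 and of 2.83, 1.66 and 2.25 in siR-GAL3 1 to 3. All 3 siR-GAL3 libraries lay above siR-Con 1, and siR-Con 2 and 3 were below 0. The means were -0.745 ± 1.67 and 2.25 ± 0.588 (SD, n = 3). With the siR-Con values below 0 set to 0, the log2 fold change was 1.31 ± 0.35 (SE; 95% interval 0.44 to 2.17) with an unadjusted p of 0.0106 and an adjusted p of 0.379 by limma, and its size depends on that floor. IRF7 was the 1 gene of the 9 past the study criteria of a log2 fold change over 1 and an unadjusted p under 0.05, beside 0.153% of all genes in the fit with no filter that met them with higher values in siR-GAL3. With a pseudocount of 0.1 in place of 1 in that fit, IFIH1, DHX58 and IRF7 all met them, with log2 fold changes of 1.05, 1.89 and 3.29, so the count of 1 among the low genes rests on the pseudocount. Of the 5 genes past the filter none met these criteria, beside 0.259% of all genes tested that met them in the higher direction.

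**Figure D2:**
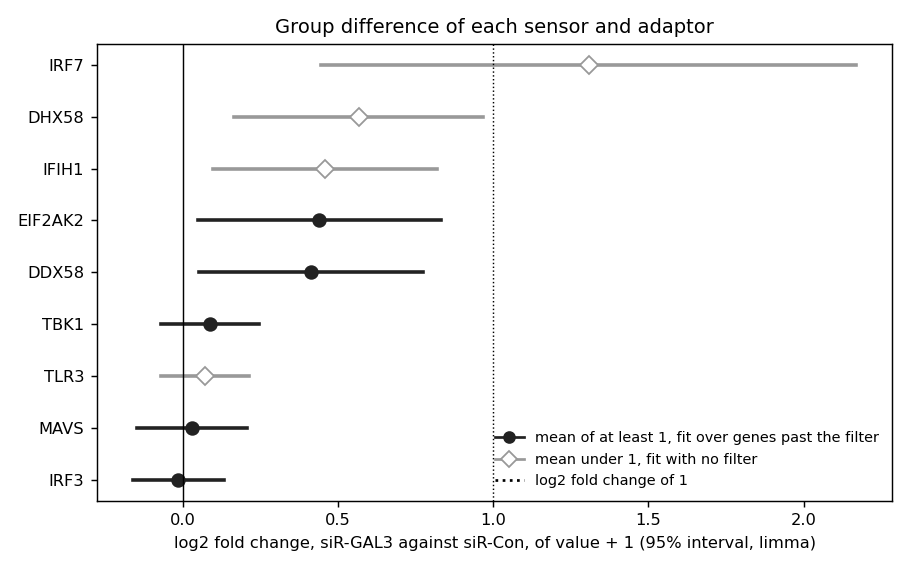
The log2 fold change (siR-GAL3 against siR-Con, of value + 1) of each gene is plotted with its 95% interval from limma; filled circles are genes with a mean of at least 1, open diamonds are genes with a mean under 1 taken from the fit with no filter, and the dotted line marks a log2 fold change of 1. The intervals of IRF7, DHX58, IFIH1, EIF2AK2 and DDX58 lie above 0, and those of TBK1, TLR3, MAVS and IRF3 include 0.

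Because the libraries fell into sets, the sizes of the differences are also given within sets 1 and 2. A gene whose groups do not overlap is higher in siR-GAL3 within each set by construction, so the direction in the 6 genes without overlap adds nothing to that count. No further gene of the 9 was higher than each siR-Con library of its set in both sets, which held for 17.9% of all genes. For DDX58 the difference of log2(value + 1) was 0.68 in set 1 and 0.30 in set 2, and for EIF2AK2 it was 0.65 and 0.38. For IFIH1 it was 0.52 and 0.44, and for DHX58 0.56 and 0.60. IRF7 differed by 0.81 in set 1 and by 1.70 in set 2, where both siR-Con values were at the floor. Set 3 held no siR-Con library and gave no value.

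**Figure D3:**
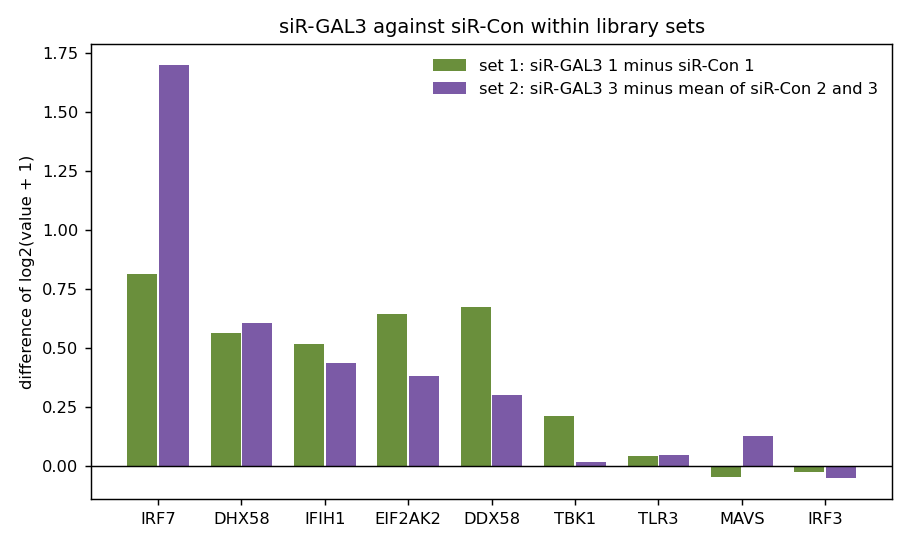
Bars give the difference of log2(value + 1) between siR-GAL3 and siR-Con within library set 1 (1 library each) and within set 2 (1 siR-GAL3 library against the mean of 2 siR-Con libraries); there is no error bar because each bar rests on 1 siR-GAL3 library. DDX58, IFIH1, DHX58, IRF7 and EIF2AK2 are above 0.25 in both sets, while TLR3, MAVS and IRF3 stay near 0.

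DDX58, IFIH1, DHX58, IRF7 and EIF2AK2 also shared the order of all 6 libraries. In each of them siR-GAL3 1 was highest, followed by siR-GAL3 3, siR-GAL3 2, siR-Con 1, siR-Con 2 and siR-Con 3. This order was noticed in the values and is given as a description. It was found in 64 of the 17648 genes, or 0.363%. The Pearson correlation of log2(value + 1) over the 6 libraries lay between 0.82 and 1.00 in the 10 pairs of these 5 genes, with a median of 0.96. In the 6 pairs of TLR3, MAVS, TBK1 and IRF3 it lay between -0.51 and 0.17, and in the 20 pairs of one of these 4 with one of the 5 between -0.30 and 0.82. TLR3 accounted for the upper end of that range, with correlations of 0.71 to 0.82 with all 5 genes, although its groups overlapped. The 5 genes are those that share the order of libraries, so their high correlations follow in part from that choice. These correlations include the difference between the groups and that between the library sets.

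**Figure D4:**
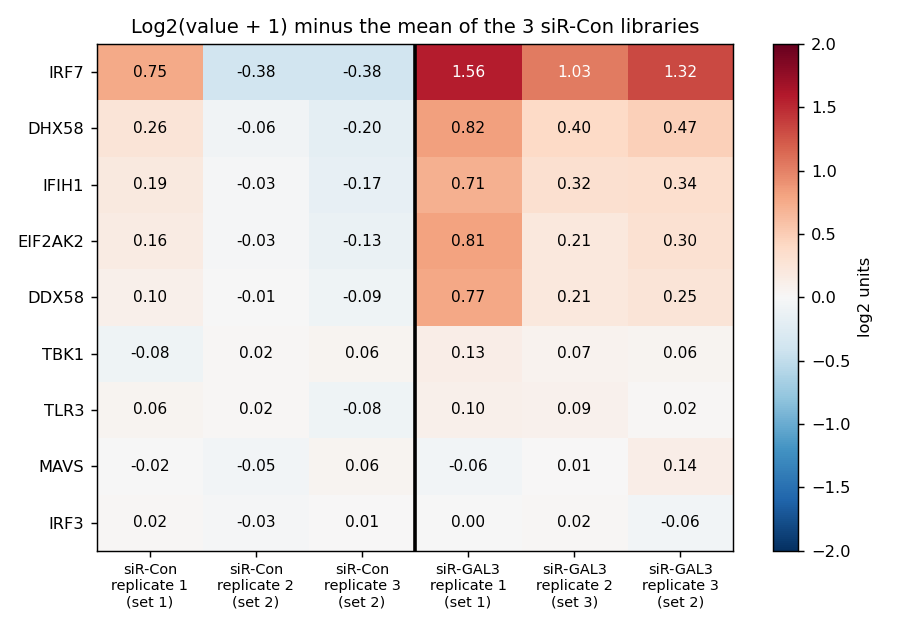
Each cell gives log2(value + 1) of a gene in a library minus the mean of the 3 siR-Con libraries, with values below 0 set to 0 before the logarithm (IRF7 in siR-Con 2 and 3, DHX58 in siR-Con 3); red is above the siR-Con mean and blue below it. The upper 5 genes are highest in siR-GAL3 1 and above 0.2 in the other siR-GAL3 libraries, and the lower 4 genes stay within 0.14 of the siR-Con mean in every library.

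Over the genes past the filter, the pattern most like that of DDX58 was that of IGTP, an interferon-inducible GTPase, with a correlation of 0.996 over the 6 libraries, followed by EIF2AK2 with 0.994 and STAT2 with 0.982. For EIF2AK2 the nearest were DDX58, then STAT2 with 0.991 and IGTP with 0.988. TBK1 was nearest to other genes, namely LCP2 with 0.991, CCPG1 with 0.988 and OLFML2B with 0.974. Thus each of DDX58 and EIF2AK2 was among the 3 nearest genes of the other, out of 8494 compared.

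Few of the partners that link the sensors to the kinases had an unadjusted p under 0.05. Of 21 partners searched, 19 were in the matrix. TICAM1, the adaptor of TLR3, and RNF135 were not, so nothing can be said of their RNA. The median log2 fold change of the partners tested was -0.03 beside -1.194e-05 over all genes tested. Of 16 tested partners, 1 was higher in siR-GAL3 with an unadjusted p under 0.05, beside 4.41% of all genes tested, and none was lower. The 1 gene was TRIM25, a ubiquitin ligase that activates RIG-I, with values of 1.35, 1.12 and 0.831 in siR-Con 1 to 3 and of 3.12, 1.42 and 2.14 in siR-GAL3 1 to 3 (log2 fold change 0.59, unadjusted p = 0.0187, adjusted p = 0.486, limma). TRIM25 had the same order of libraries as DDX58. IKBKE, the kinase that acts beside TBK1, had a mean of 0.311 ± 0.0750 in siR-Con and 0.363 ± 0.0348 in siR-GAL3 (SD, n = 3), and the groups overlapped. Of 9 tested inhibitors of the pathway, such as TNIP1 and CYLD, none had an unadjusted p under 0.05, and their median log2 fold change was 0.04. TNFAIP3 fell under the filter and was not among them.

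The genes around PKR were its regulators, its substrate, other eIF2α kinases and targets of eIF2α phosphorylation. Their median log2 fold change was 0.07, and none was lower with an unadjusted p under 0.05. In siR-GAL3, 2 of 13 tested were higher at that level, beside 4.41% of all genes tested. These were DDIT3, which encodes the stress factor CHOP (log2 fold change 0.33, adjusted p = 0.571, limma), and CHAC1, an enzyme that degrades glutathione (0.31, adjusted p = 0.363, limma). CHAC1 passed the filter only through siR-GAL3, with means of 0.791 in siR-Con and 1.21 in siR-GAL3. EIF2S1, the PKR substrate eIF2α, had a log2 fold change of 0.16 with an adjusted p of 0.590 by limma. DNAJC3, an inhibitor of PKR, had values of 6.94, 7.60 and 7.32 in siR-Con 1 to 3 and of 8.13, 8.01 and 7.89 in siR-GAL3 1 to 3, and its log2 fold change was 0.12 with an adjusted p of 0.587 by limma. PRKRA, an activator of PKR, had values of 2.92, 2.59 and 2.52 in siR-Con 1 to 3 and of 2.29, 3.03 and 2.42 in siR-GAL3 1 to 3, which overlapped. The kinase activity of PKR and the phosphorylation of eIF2α were not measured here.

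Of the 14 tested genes that process or edit small and double-stranded RNA, none had an unadjusted p under 0.05, and their median log2 fold change was -0.05. ADAR, DICER1 and AGO2 are named after their values were seen. ADAR, the enzyme that edits double-stranded RNA and limits its detection by MDA5, had values of 3.84, 3.52 and 3.37 in siR-Con 1 to 3 and of 5.91, 1.27 and 5.03 in siR-GAL3 1 to 3. It was above all siR-Con libraries in siR-GAL3 1 and siR-GAL3 3 and below all of them in siR-GAL3 2. DICER1 and AGO2, the enzyme that cuts small RNAs and the protein that carries them, were also lowest in siR-GAL3 2, at 1.63 and 0.312.

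Other nucleic acid sensors had a median log2 fold change of 0.01, and none of 9 tested was lower with an unadjusted p under 0.05. At that level 2 of the 9 were higher, beside 4.41% of all genes tested. These were AIM2, a sensor of DNA in the cytosol (log2 fold change 0.43, adjusted p = 0.261, limma), and OAS1B, of the family that makes the activator of RNase L (1.22, adjusted p = 0.371, limma). OAS1B passed the filter only through siR-GAL3, with means of 0.475 in siR-Con and 2.36 in siR-GAL3. Of the other IRF genes, IRF5 and IRF9 of 4 tested were higher with an unadjusted p under 0.05 (log2 fold changes 0.26 and 0.66), beside the same 4.41%.

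The products that the sensors induce were at very different levels. The interferon genes in the matrix, IFNA4, IFNA5, IFNE and IFNK, lay between -0.0068 and 0.016 in all 6 libraries, so that their RNA was not detectable above 0 in these values. Of 18 interferon and cytokine genes searched, 11 were in the matrix. IFNB1, IFNA1, IFNA2, IFNA11, IFNG, IFNL1 and IFNL3 were not, so nothing can be said of their RNA. CXCL10, a chemokine induced by interferon and by IRF3, had values of 0.335, 0.183 and 0.131 in siR-Con 1 to 3 and of 2.07, 0.664 and 0.727 in siR-GAL3 1 to 3, in the same order of libraries as DDX58. CXCL11 and CXCL9, which bind the same receptor as CXCL10, overlapped between the groups, with highest values of 0.434 and 0.750. The cytokine genes CCL5, IL6, TNF and IL12B had no value above 0.0201. Of the 10 tested interferon-stimulated genes, all 10 were higher in siR-GAL3 with an unadjusted p under 0.05, beside 4.41% of all genes tested. Their median log2 fold change was 0.72. BST2 was 1 of the 10 and passed the filter only through siR-GAL3, with means of 0.340 in siR-Con and 7.50 in siR-GAL3. Of the 26 in the matrix, 25 were higher in every siR-GAL3 library than in any siR-Con library, beside 9.01% of all genes. Among the 10, IFI27, NMI and GBP2 had the smallest p, with log2 fold changes of 2.08, 0.44 and 0.76 and adjusted p-values of 0.101, 0.157 and 0.232 by limma. DDX58, IFIH1, DHX58, IRF7 and EIF2AK2 are themselves known targets of interferon.

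Markers of other cells moved with the groups as well. Of 15 tested markers of microglia, which express many of these sensors, none was lower with an unadjusted p under 0.05. At that level 8 were higher in siR-GAL3, beside 4.41% of all genes tested. LYZ2, one of the 8, had siR-Con values below 0. It passed the filter only through siR-GAL3, with means of 0.295 in siR-Con and 26.0 in siR-GAL3. The summed level of the other listed markers, with TMEM119, which was below the filter, and without LYZ2, lay between 135.6 and 160.9 in siR-Con and between 174.8 and 194.1 in siR-GAL3. PTPRC, which encodes the leukocyte protein CD45, had the same order of libraries as DDX58. Of 10 tested astrocyte markers, 4 were lower and none higher, beside 361 of all 8495 genes tested that were lower. The sums of these markers were 1158 to 1286 in siR-Con and 985.1 to 1084 in siR-GAL3. Of 5 tested markers of fibroblasts and vessels, 3 were lower, beside the same 361 of 8495, with sums of 44.1 to 51.5 and 34.0 to 39.1. Of 9 tested oligodendrocyte markers none had an unadjusted p under 0.05. Of 7 tested neuron markers 1 did, STMN2, which was higher, beside 4.41% of all genes tested. STMN2 passed the filter only through siR-GAL3, with means of 0.822 in siR-Con and 1.29 in siR-GAL3. The part of these cells in the values of DDX58, IFIH1, DHX58, IRF7 and EIF2AK2 was not tested.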

How the data were processed

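RNA was sequenced in 6 libraries, 3 per group. Before deposit, the authors used STAR for alignment and HTSeq for counting per gene, computed FPKM, and then applied a batch correction, a standardization and a correction of differences within groups. The deposited values are linear and derived from FPKM, and some are below 0, so neither FPKM as such nor counts could be assumed and the depth is unknown. The genome build is not given in the sources used here. The plan for these values was FPKM, and the same test was kept. Libraries were grouped by the treatment in the sample labels.

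Values below 0 were set to 0 and log2(value + 1) was fitted with limma 3.58.1 (intensity trend) in R 4.3.3 over the 8495 genes whose deposited values had a mean of at least 1. Genes with a mean under 1 were taken from the fit over all 17648 genes. Adjusted p-values are Benjamini-Hochberg values over all genes of a fit. Exact permutation tests and tables were made in Python 3.11.15 with NumPy 2.4.6 and pandas 2.3.3. The fit was tested on simulated data. None of the 9 genes was among the 432 rows whose 6 values also occurred in another row.

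Named by rule were the 9 genes, the targeted gene, the listed genes with the smallest p (up to 5 a list, not all printed), direct partners of the 9, interferons and cytokines, cell type markers and, for each of DDX58, EIF2AK2 and TBK1, the 3 genes with the highest correlation. These 3 had the smallest p of the 5 past the filter. The genes and lists were chosen with earlier results of these data known. The alternatives were another pseudocount, other filters, median-ratio scaling, quantile normalization, a fit without the intensity trend, values not log-transformed, genes with a value below 0 left out, the replicate number or the library set as a block, and each library left out in turn. Protein measurements and the other datasets of the paper were not analysed here.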

Additional observations from a re-analysis of the deposited data

How the results depend on the processing

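Of the 5 genes past the filter, 2 had an unadjusted p under 0.05, and this count was 0 with values not log-transformed and between 0 and 2 when each library was left out (0 without siR-Con 2 or siR-Con 3, 1 without siR-GAL3 1). No gene had an adjusted p under 0.05, and 1 did under a block for the library set (EIF2AK2), which takes no part of the group difference from siR-GAL3 2. No gene met the study criteria, and 1 did with no filter and with a filter on the mean after values below 0 were set to 0, which was added after seeing the data (IRF7 in both). With no filter and a pseudocount of 0.1, a pairing of settings added after seeing the data, IFIH1, DHX58 and IRF7 met them, with log2 fold changes of 1.05, 1.89 and 3.29. The median log2 fold change was 0.09, and it was 0.41 with no filter and 0.25 with the added filter, as the genes included differ. It equals the value of TBK1 and was 0.05 without siR-Con 1. The log2 fold change of MAVS, 0.03, was -0.02 without siR-GAL3 replicate 3, and that of IRF3, -0.01, was 0.0087 without it. With each library left out they ranged from -0.0249 to 0.0731 and from -0.0316 to 0.00866. Over the alternatives, the log2 fold change of DDX58 had p under 0.05 in 12 of 16 and that of EIF2AK2 in 11 of 16, both positive in all 16. IFIH1 kept p under 0.05 in 12 of 14, DHX58 in 13 of 13 and IRF7 in 14 of 14. Leaving out genes with a value below 0 removed DHX58 and IRF7, so their counts do not include that setting. A filter on a mean of at least 5 left none of the 9 genes.

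Of all genes, 27 met the study criteria, 39 with a pseudocount of 0.1, 15 without genes that held a value below 0, 6 with a mean of at least 5 and 367 with values not log-transformed, where the threshold is a difference of 1. The 736 genes with an unadjusted p under 0.05 became 1623 with no filter, 260 with a mean of at least 5, 1174 under that block, and between 344 and 1388 with each library left out. No gene had an adjusted p under 0.05, and 106 did with the set block, 6 with the replicate block and up to 167 with a library left out (siR-GAL3 2). With the replicate block, 543 genes had an unadjusted p under 0.05, and the 9 genes gave the same 2 calls and the same median of 0.09. The numbers share no stated origin, and deviations of same-numbered libraries correlated by -0.17, -0.07 and 0.04 over genes. Differences within groups had been corrected before deposit, so these correlations cannot decide whether the numbers pair the libraries. Library set 1 held siR-Con 1 with siR-GAL3 1, and set 2 held siR-Con 3 with siR-GAL3 3, but siR-Con 2 and siR-GAL3 2 lay in different sets. The unknown depth and 3 libraries per group limit what differences in low genes such as TLR3, DHX58 and IRF7 can be seen.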
